A study of Mus musculus with 9 samples.

Results

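Amino acid and neurotransmitter transporters of 4 solute carrier families were followed in lesion-derived cultures and in injured and uninjured mouse cortex. The members were all genes whose symbol places them in family Slc1, Slc6, Slc7 or Slc38. This rule goes by name and takes no measured value, but it was set with earlier results of these data known. They were 54 of the 56748 genes counted: 7 of Slc1, 21 of Slc6, 15 of Slc7 and 11 of Slc38. Polyadenylated RNA was sequenced in 9 libraries, 3 biological replicates in each of 3 groups, all from wild-type C57BL/6J mice 2 to 3 months old. Reactive cultures came from dissected lesion cores grown with 10% fetal bovine serum and B27 supplement, and were taken whole, with no sort. Injured cortex was taken after a grid of lancet stab wounds and uninjured cortex was intact. In both cortex groups, dissociated cells were sorted to remove neurons (CD171+ and ACSA-2-), dead cells and debris, so that neuronal carriers were measured only in what passed that gate. The sources differ on time. Dissection 1 day after injury, then 6 days of culture, is what the samples' own labels state. The series' design text states 3 days for injured cortex and, for cultures, dissection at 24 h with 8 days in vitro.

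These carriers move amino acids and related solutes across membranes. Astrocytes clear synaptic glutamate through the sodium-driven carriers of Slc1a2 and Slc1a3 and take up GABA through carriers such as that of Slc6a11. They convert glutamate to glutamine, which the Slc38 carriers release to neurons and take back up. The Slc7 family holds carriers of cationic amino acids and the light chains of exchangers that reach the membrane only when joined to a heavy chain, the product of Slc3a2 or Slc3a1. One of these exchangers, with the light chain of Slc7a11, imports cystine for glutathione in exchange for glutamate. The other Slc6 genes encode carriers of glycine, taurine, creatine, betaine, monoamines and neutral amino acids.

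Library totals were 16667883 to 24302770 counts in cultures, 20389561 to 21135163 in injured cortex and 12205049 to 18577561 in uninjured cortex. Sums over lists of cell type markers are given in CPM, counts scaled to the total of each library. The 10 astrocyte markers summed to 58.4 to 86.8 CPM in cultures, to 2116, 2381 and 4041 CPM in injured cortex replicates 1, 2 and 3, and to 3655 to 6876 CPM in uninjured cortex. The 8 microglia markers summed to 1168 to 1788 CPM in cultures, 7924 to 14744 CPM in injured cortex and 12741 to 17259 CPM in uninjured cortex. The sum over the 8 macrophage and monocyte markers ran the other way, at 34087 to 39212 CPM in cultures, 3239 to 9330 CPM in injured cortex and 1535 to 1625 CPM in uninjured cortex. Lyz2 made up most of that sum in cultures. In the test described below, 4 of these 8 genes were called higher and 3 lower in cultures against injured cortex. The 8 oligodendrocyte markers summed to 313 to 605 CPM in cultures, 15563 to 18594 CPM in injured cortex and 26717 to 42397 CPM in uninjured cortex. The 9 neuron markers summed to 16.5 to 26.4 CPM in cultures, 49.7 to 108 CPM in injured cortex and 31.1 to 41.3 CPM in uninjured cortex. The 8 mural markers summed to 2460 to 2717 CPM in cultures, 499 to 694 CPM in injured cortex and 967 to 2165 CPM in uninjured cortex. Nearly all of the mural sum in cultures was Acta2, and most other mural markers were lower there than in cortex. The 6 fibroblast markers summed to 153 to 397 CPM in cultures, 44.3 to 198 CPM in injured cortex and 34.6 to 44.5 CPM in uninjured cortex. The 6 markers of oligodendrocyte precursors summed to 28.9 to 46.1 CPM in cultures, 156, 33.0 and 503 CPM in injured replicates 1 to 3 and 31.3 to 77.8 CPM in uninjured cortex. Cspg4 made up most of this sum in cultures, where 0 of the 6 were called higher and 5 lower than in injured cortex. The 8 endothelial markers summed to 233 to 256 CPM in cultures, 403 to 743 CPM in injured cortex and 359 to 778 CPM in uninjured cortex. The 7 neutrophil markers summed to 130 to 159 CPM in cultures, 413 to 497 CPM in injured cortex and 65.2 to 228 CPM in uninjured cortex. In cultures, Slc2a1 made up most of the endothelial sum and Mmp8 most of the neutrophil sum. Of the 7 neutrophil markers, 1 was called higher and 6 lower in cultures against injured cortex, and 1 higher and 4 lower against uninjured cortex. Of all these markers, only Neu4 of the precursor list was at 0 throughout a group, the cultures. Uninjured replicates 2 and 3 stood apart, with 182 and 151 CPM at 1999 olfactory and vomeronasal receptor genes, against 14.4 to 44.1 CPM in the other 7 libraries.

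The carriers differed far more between cultures and either cortex group than between injured and uninjured cortex. Of the 54 members, 38 passed the filter on low counts and were tested with edgeR's quasi-likelihood test, with p-values adjusted by the Benjamini-Hochberg method over 18093 genes and a call at an adjusted p under 0.05. Between injured and uninjured cortex, Slc38a1 was called higher and Slc6a20a and Slc38a11 lower, 3 of 38, where 11.9% of all genes were called, 8.99% higher and 2.87% lower. Of all genes 1626 were called higher and 519 lower, and with upper-quartile scaling 1352 and 761. In cultures against injured cortex, 10 members were called higher and 15 lower, where 50.1% of all genes were called, 20.0% higher and 30.1% lower. In cultures against uninjured cortex, 15 were called higher and 16 lower, where 60.5% of all genes were called, 27.5% higher and 33.1% lower. Levels of all libraries did not overlap between the groups for 10, 29 and 31 of the 38 members in these 3 comparisons, where they did not for 28.6%, 59.7% and 69.2% of all genes. Both culture comparisons use the same culture libraries, and each cortex group enters a pair of comparisons. The members' median log2 fold change was -0.06 in injured against uninjured cortex, -0.67 in cultures against injured cortex and -0.40 in cultures against uninjured cortex, beside 0.00, -0.19 and -0.17 over all genes tested. With Slc38a4, which had no count in injured cortex, at the bound of its fold change, the second of these medians was also -0.67. Slc1a6, Slc38a4 and Slc6a19 passed the filter only through the cultures, where they were high, and were called higher in both culture comparisons. Their calls are thus no separate support for a difference. A further 6 members that passed the filter had no culture library over its limit of 0.490 CPM: Slc38a5, Slc6a11, Slc6a15, Slc6a20a, Slc7a10 and Slc7a14. They passed only through cortex libraries, where they were higher. All of them but Slc6a15 were called lower in both culture comparisons, and those calls are likewise no separate support for a difference.

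**Figure D1:**
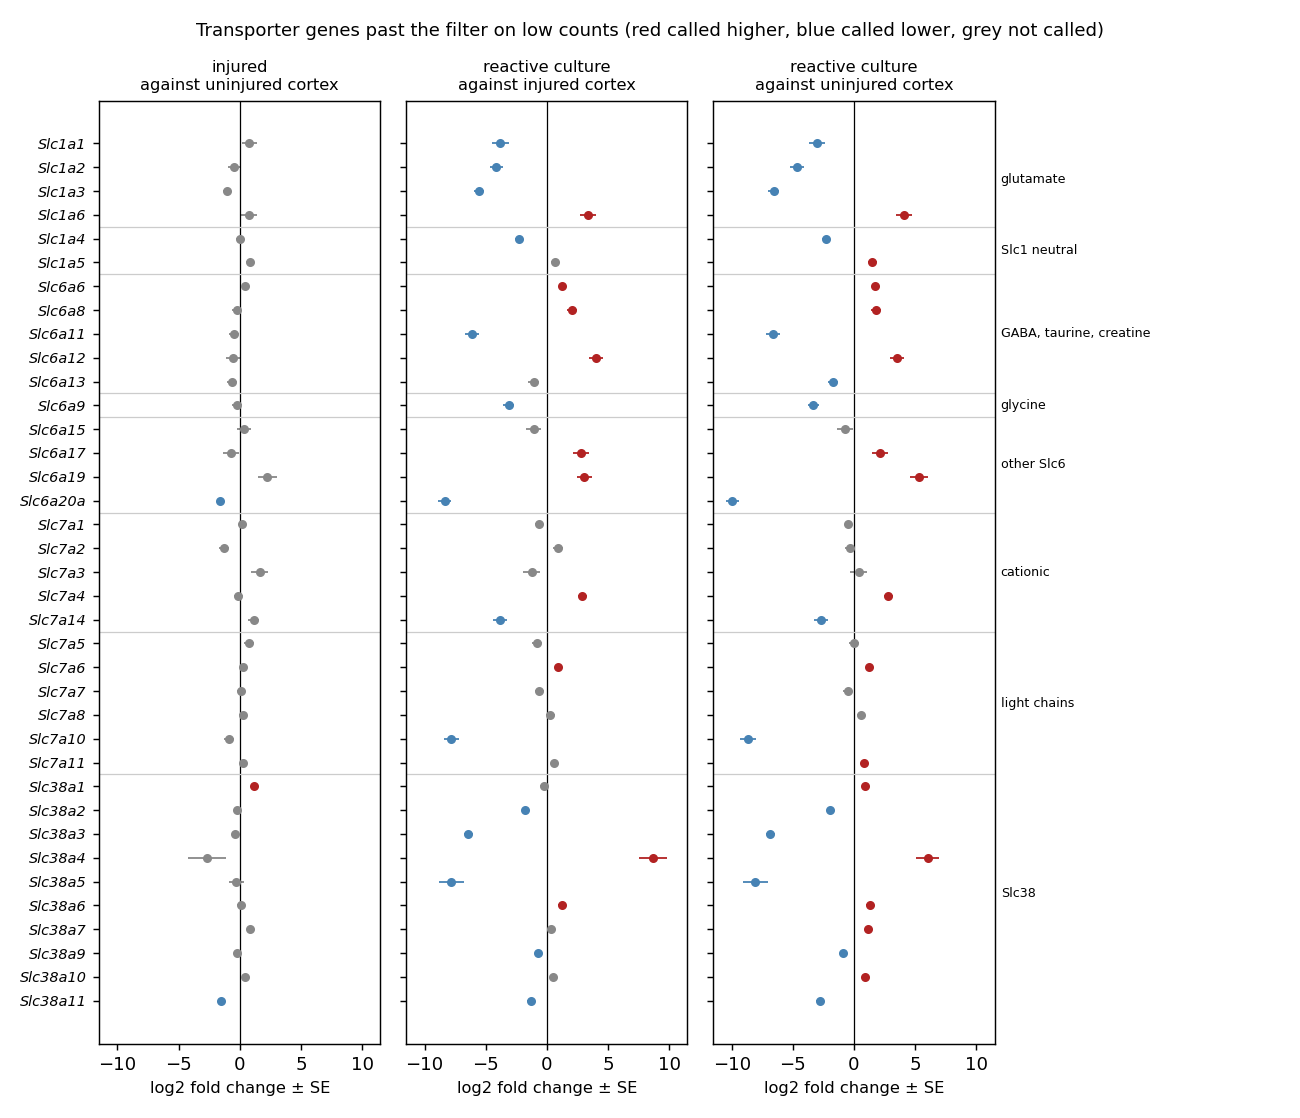
Log2 fold changes (x axis, points with standard errors) of 37 transporter genes past the filter (y axis, by role) in the 3 comparisons (injured against uninjured cortex, cultures against injured cortex, cultures against uninjured cortex). Red points were called higher and blue ones lower in edgeR's quasi-likelihood test: 3 of those drawn between the cortex groups, 24 in cultures against injured cortex and 30 in cultures against uninjured cortex. The fitted values of Slc38a4 in all panels and of Slc38a5 and Slc6a20a in the culture panels rest on groups with 0 to 2 counts and depend on the fit's prior count.

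The leading carriers also changed places. Levels of different genes were compared per length, as CPM per kb of exon. In cultures the taurine carrier Slc6a6 came first, at 48.6 ± 5.86 CPM per kb (SD, n = 3), which was 29.0% of the summed level of all 54 members. The light chains Slc7a8 at 17.0 ± 8.96 and Slc7a7 at 13.7 ± 1.61 CPM per kb and the creatine carrier Slc6a8 at 11.6 ± 4.74 CPM per kb followed it in cultures, and these 3 did not differ beyond their spread. In injured cortex the glutamate carrier Slc1a3 came first, at 51.1 ± 22.4 CPM per kb, before Slc1a2 at 39.0 ± 27.6 and Slc7a10 at 30.7 ± 9.32 CPM per kb, again with overlapping spreads. In uninjured cortex Slc1a3 stood at 105 ± 27.9 CPM per kb, or 26.4% of the members' sum, followed by Slc7a10 at 56.8 ± 27.6 and Slc1a2 at 55.5 ± 17.1 CPM per kb, which did not differ beyond their spread. Slc6a6 was the sixth in injured cortex at 20.6 CPM per kb and the seventh in uninjured cortex at 14.9 CPM per kb. In cultures Slc1a3 held 0.66% and Slc1a2 1.34% of the members' sum. Counted without length, the members together took 756 to 902 CPM in cultures, 1711 to 3907 CPM in injured cortex and 2997 to 4120 CPM in uninjured cortex.

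**Figure D2:**
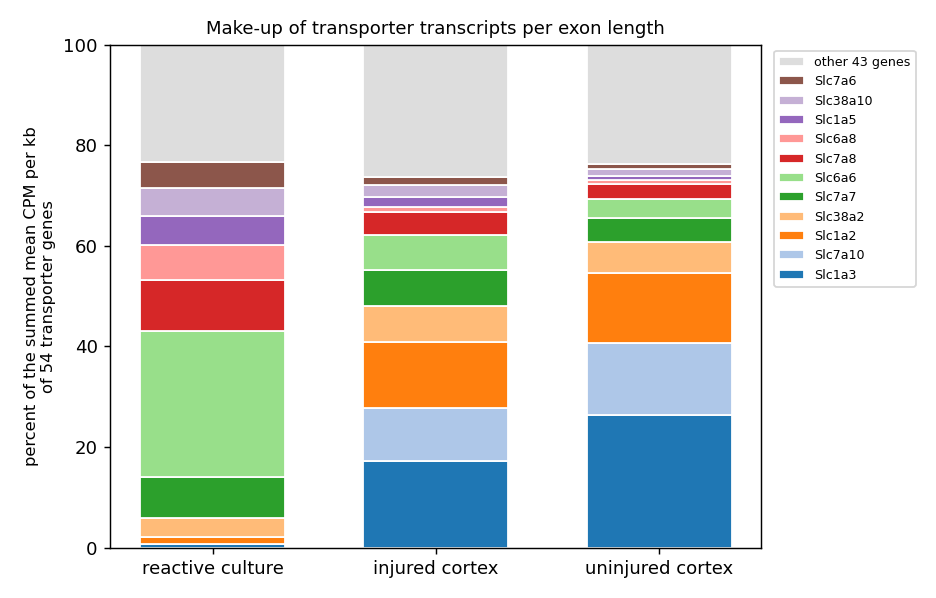
Share (percent) of the members' summed level per kb of exon taken by each of 11 genes and by the other 43 together, in cultures, injured cortex and uninjured cortex (means of 3 libraries). Slc6a6 takes 29.0% in cultures, 6.96% in injured cortex and 3.75% in uninjured cortex, and Slc1a3 takes 0.66%, 17.3% and 26.4%.

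Of the glutamate and aspartate carriers, 4 of 5 passed the filter, and in cultures 3 were lower and 1 higher than in either cortex group. Slc1a2, which carries most glutamate uptake of the forebrain, had 13.9, 28.7 and 45.9 CPM in culture replicates 1 to 3, against 333, 274 and 930 CPM in injured cortex and 531, 683 and 974 CPM in uninjured cortex. Every culture lay far below every cortex library, whereas injured replicate 3 lay among the uninjured libraries and the other injured libraries below them. Its log2 fold change was -4.12 ± 0.56 (SE) in cultures against injured cortex (adjusted p = 9.28e-05) and -4.63 ± 0.57 in cultures against uninjured cortex (adjusted p = 2.88e-05). Between injured and uninjured cortex it was -0.51 ± 0.49 (adjusted p = 0.557), and without injured replicate 3 it was -1.28 with an adjusted p of 0.0367. In bulk samples, fewer cells of a type and less RNA per cell cannot be told apart.

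Slc1a3, the glutamate carrier also found in radial glia, had 9.03, 8.11 and 11.2 CPM in cultures, 286, 371 and 652 CPM in injured cortex and 1119, 646 and 929 CPM in uninjured cortex. The cultures were apart from all cortex libraries, and injured replicate 3 lay just above the lowest uninjured library. The log2 fold change was -5.53 ± 0.40 in cultures against injured cortex (adjusted p = 5.98e-07) and -6.57 ± 0.42 in cultures against uninjured cortex (adjusted p = 1.37e-07). In injured against uninjured cortex it was -1.04 ± 0.33 and missed the threshold (adjusted p = 0.0602), which it passed under 7 of 18 alternatives, with an adjusted p of 0.0452 under DESeq2 size factors and of 0.00226 without injured replicate 3. The 2 genes together took 1.91% to 5.22% of the members' counts in cultures, 35.5%, 35.4% and 56.3% in injured replicates 1 to 3 and 53.0% to 62.0% in uninjured cortex.

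Slc1a1, a carrier of glutamate, aspartate and cysteine best known from neurons, had 0.614, 1.55 and 0.783 CPM in cultures, 13.3, 9.42 and 19.5 CPM in injured cortex and 16.4, 1.98 and 6.10 CPM in uninjured cortex. The cortex groups overlapped, and uninjured replicate 2 was near the cultures. The log2 fold change was -3.82 ± 0.69 in cultures against injured cortex (adjusted p = 7.55e-04) and -3.03 ± 0.68 against uninjured cortex (adjusted p = 0.00228). In injured against uninjured cortex it was 0.79 ± 0.59 (adjusted p = 0.431), and without uninjured replicate 1 it was 1.83 with an adjusted p of 0.0483. Slc1a6, a glutamate carrier known from cerebellar Purkinje cells, ran the other way at low levels: 5.53, 4.37 and 5.48 CPM in cultures, 0.377, 0.105 and 0.919 CPM in injured cortex and 0.276, 0.135 and 0.488 CPM in uninjured cortex. All cultures were above all cortex libraries, with a log2 fold change of 3.38 ± 0.63 against injured cortex (adjusted p = 9.74e-04) and 4.11 ± 0.68 against uninjured cortex (adjusted p = 2.87e-04). Slc1a6 could be tested only because the cultures brought it past the filter. Slc1a7, the glutamate carrier of the retina, did not pass the filter.

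**Figure D3:**
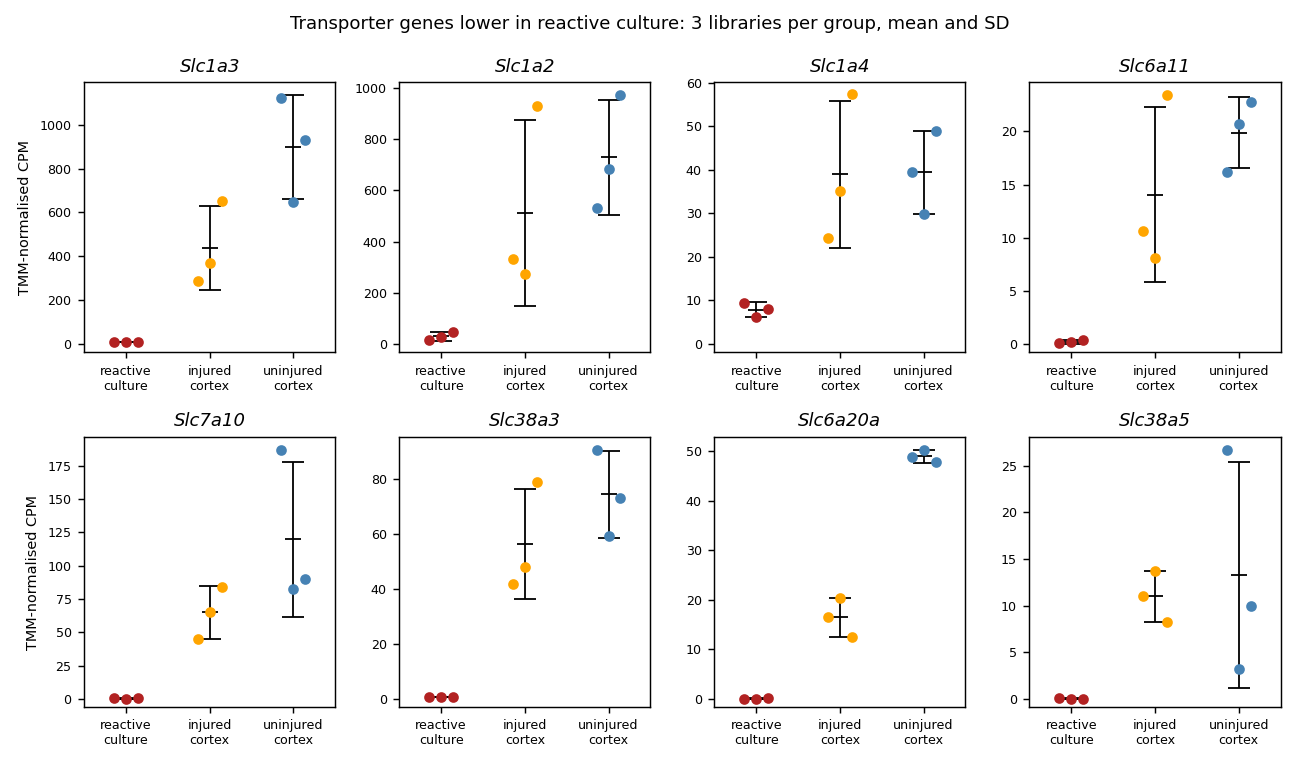
Level (TMM-normalised CPM, linear axis) of 8 transporter genes called lower in cultures, 1 point per library with the group mean and SD, for cultures, injured cortex and uninjured cortex. Slc1a3 lies at 8.11 to 11.2 CPM in cultures, 286 to 652 CPM in injured cortex and 646 to 1119 CPM in uninjured cortex.

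Carriers of GABA and betaine went both ways in cultures. Slc6a11, an astrocytic GABA carrier, had 0.0614, 0.172 and 0.391 CPM in cultures, 10.6, 8.12 and 23.5 CPM in injured cortex and 16.2, 20.7 and 22.8 CPM in uninjured cortex. The cultures were below every cortex library and injured replicate 3 was above the uninjured ones. The log2 fold change was -6.12 ± 0.58 in cultures against injured cortex (adjusted p = 5.78e-06) and -6.61 ± 0.59 against uninjured cortex (adjusted p = 1.90e-06). In injured against uninjured cortex it was -0.50 (adjusted p = 0.467), and its adjusted p without injured replicate 3 was 0.0300.

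The neighbouring pair Slc6a12 and Slc6a13 did not share a direction in cultures. Slc6a12, which carries betaine and GABA, had 4.24, 5.06 and 18.8 CPM in cultures, 0.519, 0.576 and 0.613 CPM in injured cortex and 0.552, 0.810 and 1.10 CPM in uninjured cortex. Culture replicate 3 was well above the other cultures, and all cultures were above the cortex libraries, with a log2 fold change of 4.01 ± 0.60 against injured cortex (adjusted p = 2.03e-04) and 3.50 ± 0.59 against uninjured cortex (adjusted p = 3.14e-04). Slc6a13, a GABA and taurine carrier of meninges and vessels, had 1.35, 2.07 and 5.09 CPM in cultures, 5.80, 4.76 and 7.08 CPM in injured cortex and 7.07, 10.8 and 9.76 CPM in uninjured cortex. It was lower in cultures than in uninjured cortex, with a log2 fold change of -1.71 ± 0.44 (adjusted p = 0.00532), but missed the threshold without uninjured replicates 2 and 3 (adjusted p = 0.110). Culture replicate 3 overlapped injured cortex, and that difference was -1.07 ± 0.44 (adjusted p = 0.0584), or -1.77 without that library (adjusted p = 0.00478).

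The astrocyte markers moved in the direction of Slc1a2, Slc1a3 and Slc6a11 and against that of Slc1a6 and Slc6a12: 10 of 10 were lower in cultures than in injured cortex, with log2 fold changes of -7.34 to -3.12 and a median of -4.78. Against uninjured cortex 10 of 10 were lower too, from -8.31 to -0.92 with a median of -5.12. Injured cortex had 1 of 10 called higher and 2 lower against uninjured cortex. For 7 carriers chosen after their values were seen, counts were therefore set against the counts at the astrocyte markers without Gfap, 9 genes that summed to 54.5 to 78.5 CPM in cultures, 1801 to 3599 CPM in injured cortex and 3639 to 6854 CPM in uninjured cortex. Slc1a2 stood at 19.2%, 32.9% and 44.8% of the marker counts in cultures, 18.8%, 12.1% and 35.9% in injured cortex and 8.75%, 22.4% and 23.8% in uninjured cortex, so the 3 groups overlapped. Slc1a3 stood at 12.4%, 9.28% and 10.9% in cultures, below its 16.1%, 16.4% and 25.2% in injured cortex and 18.4%, 21.2% and 22.7% in uninjured cortex. By this measure Slc1a3 lay lower in every culture than in every cortex library, and Slc1a2 did not. Aldoc held the largest part of the marker counts in every library, and the order of Slc1a3 depended on the marker. Set against Gjb6 or Ntsr2 alone, Slc1a3 lay higher in every culture than in every cortex library. Against Gja1, Aldh1l1, Sox9 or Slc4a4 alone it lay lower, and against Aldoc, Aqp4 or Fgfr3 alone cultures and cortex overlapped. Slc1a4 lay the other way, at 13.1%, 7.11% and 7.79% in cultures, 1.37%, 1.55% and 2.22% in injured cortex and 0.650%, 0.984% and 1.19% in uninjured cortex. So did Slc6a9, at 1.38% to 3.04% in cultures, 0.492% to 1.10% in injured cortex and 0.231% to 0.506% in uninjured cortex. Its culture values rest on 36, 30 and 18 counts, beside 239, 253 and 202 of B4galt2, whose exons overlap those of Slc6a9 on the opposite strand. Slc7a10, at 0% to 0.535% in cultures, was below every cortex library, the lowest at 2.19%. Slc38a3, at 0.724% to 0.764% in cultures, was too, the lowest cortex library being at 1.50%. Slc6a11 overlapped between cultures and cortex. These ratios depend on the markers taken, were not tested and are no measure of RNA per astrocyte. The part of astrocyte number in the changes was not tested.

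**Figure D4:**
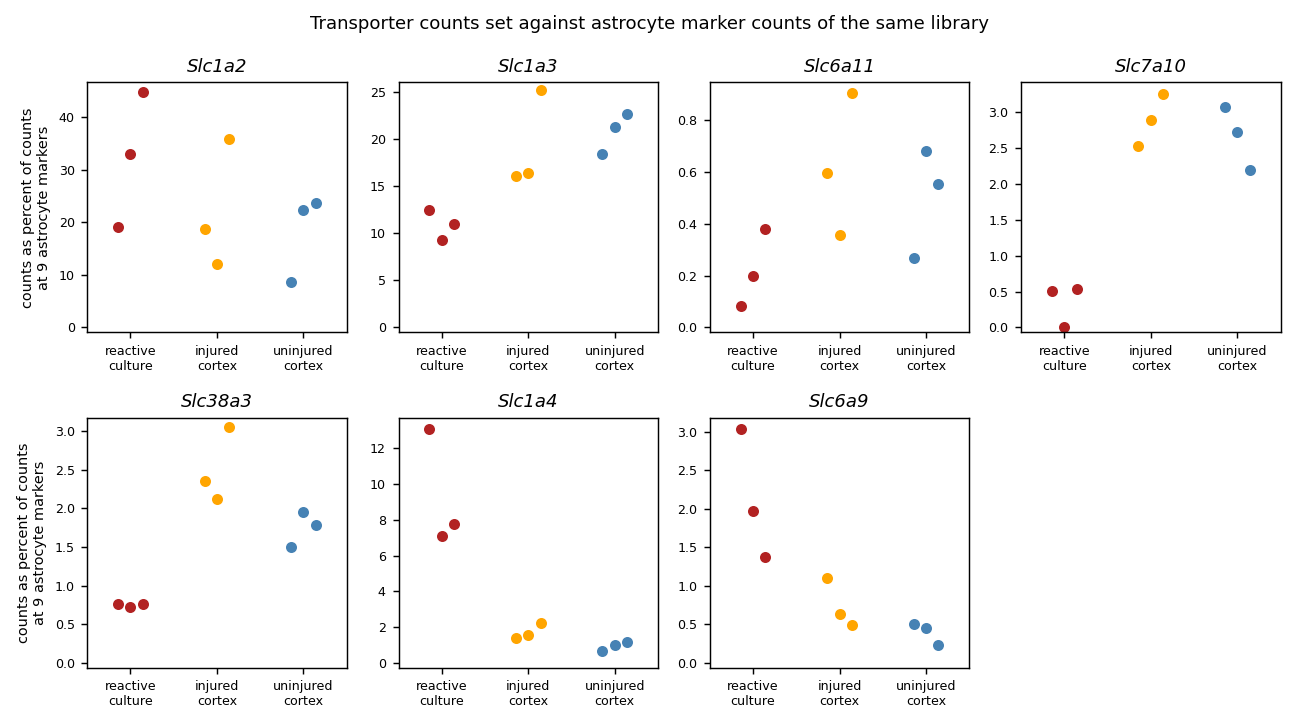
Counts at 7 transporter genes as percent of the counts at 9 astrocyte markers (linear axis), 1 point per library, for cultures, injured cortex and uninjured cortex. Slc1a2 overlaps between the groups, at 19.2% to 44.8% in cultures, 12.1% to 35.9% in injured cortex and 8.75% to 23.8% in uninjured cortex, whereas Slc1a4 is higher in cultures, at 7.11% to 13.1%.

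Slc6a6, the taurine carrier, was higher in cultures, with 463, 408 and 364 CPM in cultures, 174, 201 and 148 CPM in injured cortex and 144, 122 and 113 CPM in uninjured cortex. The 3 groups did not overlap, with cultures highest and uninjured cortex lowest. In cultures the log2 fold change was 1.24 ± 0.22 against injured cortex (adjusted p = 6.19e-04) and 1.70 ± 0.22 against uninjured cortex (adjusted p = 4.20e-05), and it was 0.46 ± 0.22 in injured against uninjured cortex (adjusted p = 0.197). Slc6a6 alone took 33.3% to 38.6% of the members' counts in cultures, 5.25% to 11.0% in injured cortex and 3.69% to 4.86% in uninjured cortex. Slc6a8, the creatine carrier, had 43.0, 49.8 and 88.8 CPM in cultures, 10.9, 8.85 and 23.9 CPM in injured cortex and 11.8, 18.3 and 22.0 CPM in uninjured cortex. The cultures were above all cortex libraries, which overlapped each other, and the log2 fold change was 2.05 ± 0.40 against injured cortex (adjusted p = 0.00129) and 1.80 ± 0.40 against uninjured cortex (adjusted p = 0.0021). Of the 8 macrophage and monocyte markers, 4 were called higher and 3 lower in cultures against injured cortex, and 6 higher and 1 lower against uninjured cortex, while 5 of 6 fibroblast markers were higher in both. Their part in these changes was not tested.

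**Figure D5:**
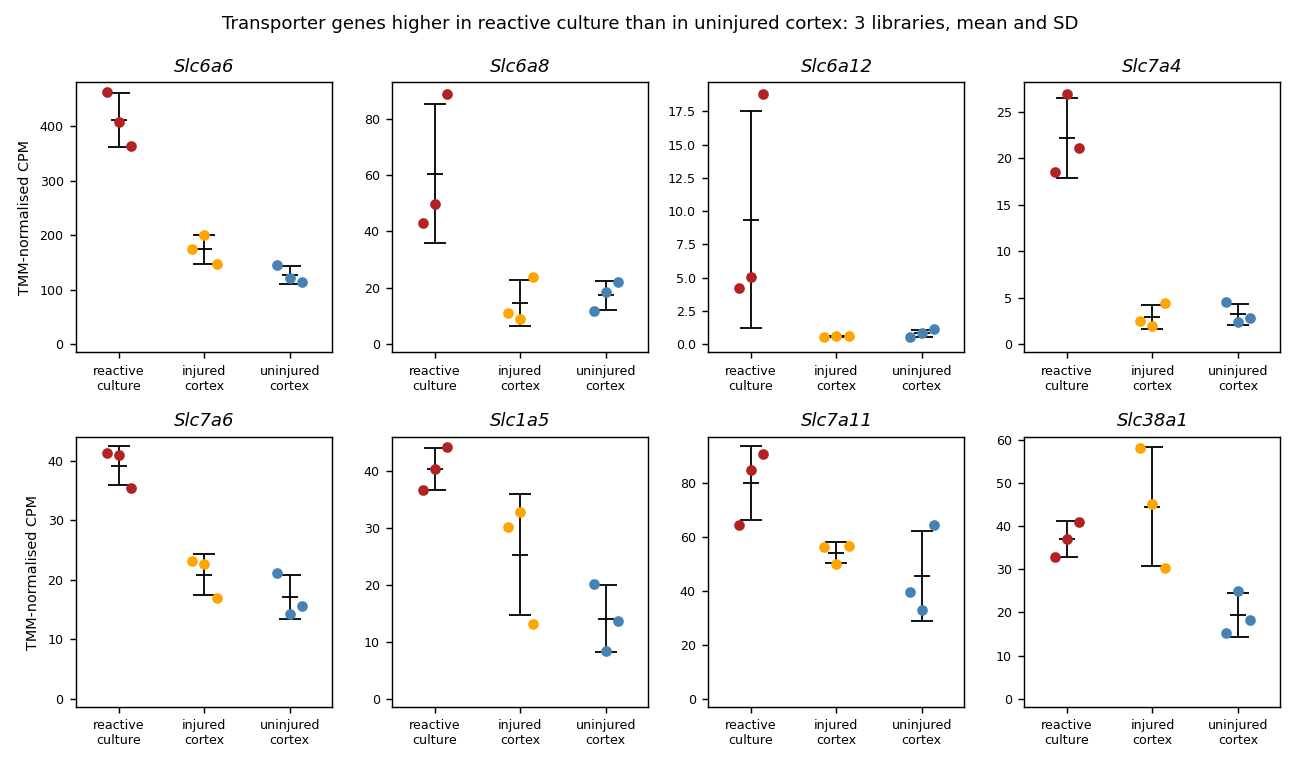
Level (TMM-normalised CPM, linear axis) of 8 transporter genes called higher in cultures against uninjured cortex, 1 point per library with the group mean and SD, for cultures, injured cortex and uninjured cortex. Slc6a6 lies at 364 to 463 CPM in cultures, 148 to 201 CPM in injured cortex and 113 to 144 CPM in uninjured cortex.

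The glycine carrier Slc6a9, which clears glycine around glutamatergic synapses, was lower in cultures. It had 2.21, 1.72 and 1.41 CPM in cultures, 19.5, 14.5 and 12.7 CPM in injured cortex and 30.7, 13.8 and 9.45 CPM in uninjured cortex. The cultures lay below the cortex groups, which overlapped, with a log2 fold change of -3.12 ± 0.44 against injured cortex (adjusted p = 1.16e-04) and -3.32 ± 0.44 against uninjured cortex (adjusted p = 4.81e-05). B4galt2, a galactosyltransferase gene with exons opposite those of Slc6a9, had means of 15.0 CPM in cultures, 6.43 CPM in injured cortex and 4.13 CPM in uninjured cortex. Slc6a5, the glycine carrier of glycinergic neurons, did not pass the filter.

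Slc6a20a, a carrier of proline and related imino acids, was among the 3 genes called after injury and had almost no counts in cultures. It had 0, 0 and 0.157 CPM in cultures, 16.5, 20.3 and 12.5 CPM in injured cortex and 48.8, 50.2 and 47.7 CPM in uninjured cortex. The uninjured libraries were close together and well above the injured ones, with a log2 fold change of -1.57 ± 0.30 in injured against uninjured cortex (adjusted p = 0.00467). With uninjured replicates 2 and 3 left out the adjusted p was 0.111. Cultures held 2 counts in all, against 1105 in injured cortex and 2783 in uninjured cortex. Scaled for depth, the cultures were lower than injured cortex by a ratio of 368 (95% exact counting interval 102 to 3046, adjusted p = 2.67e-07), and lower than uninjured cortex by a ratio of 1139 (315 to 9414, adjusted p = 4.62e-08). Such intervals cover counting error only. The oligodendrocyte markers had 2 of 8 called lower in injured against uninjured cortex and 8 of 8 in both culture comparisons. The mural markers had 5 of 8 called lower in injured against uninjured cortex, 3 higher and 5 lower in cultures against injured cortex, and 2 higher and 5 lower against uninjured cortex. The sums of both lists are given above, and their part in these changes was not tested. Exons of Slc6a20a overlap those of the chemokine receptor gene Ccr9 on the opposite strand, whose means were 0.318 CPM in cultures, 6.95 CPM in injured cortex and 1.36 CPM in uninjured cortex. The strand setting of the counting is not given in the sources used here. Reads of such pairs, which 12 of the 54 members form, thus cannot be told apart. These members are Slc1a1, Slc1a2, Slc6a6, Slc6a9, Slc6a20a, Slc6a20b, Slc7a2, Slc7a4, Slc7a7, Slc7a10, Slc38a9 and Slc38a10.

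Slc6a17 and Slc6a19 were low in cortex and higher in cultures. Slc6a17, a vesicular carrier of neutral amino acids known from neurons, had 3.75, 5.92 and 7.83 CPM in cultures, 0.661, 0.576 and 1.19 CPM in injured cortex and 0.221, 2.38 and 1.34 CPM in uninjured cortex. Cultures differed by 2.82 ± 0.66 on the log2 scale against injured cortex (adjusted p = 0.0039) and 2.13 ± 0.64 against uninjured cortex (adjusted p = 0.0123), with no overlap. Slc6a19, the neutral amino acid carrier of gut and kidney, had 4.48, 4.31 and 4.77 CPM in cultures, 0.330, 0.366 and 0.885 CPM in injured cortex and 0.221, 0 and 0.122 CPM in uninjured cortex. All groups were apart, and the log2 fold change was 3.05 ± 0.62 in cultures against injured cortex (adjusted p = 0.00159) and 5.30 ± 0.75 against uninjured cortex (adjusted p = 8.50e-05). Slc6a19 could be tested only because the cultures brought it past the filter. Injured against uninjured cortex gave 2.25 ± 0.77 (adjusted p = 0.0815), and 3.20 without uninjured replicate 1 (adjusted p = 0.0488).

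Of the light chains of heteromeric exchangers, 6 of 10 passed the filter, and they moved in different directions in cultures. Their heavy chain gene Slc3a2 had 573, 647 and 695 CPM in cultures, 711, 884 and 409 CPM in injured cortex and 580, 403 and 332 CPM in uninjured cortex. The groups overlapped, with log2 fold changes of -0.07 in cultures against injured cortex (adjusted p = 0.877), 0.54 ± 0.32 in cultures against uninjured cortex (adjusted p = 0.152) and 0.61 ± 0.32 in injured against uninjured cortex (adjusted p = 0.248). Slc7a10, the exchanger of D-serine, glycine and small neutral amino acids, had 0.368, 0 and 0.548 CPM in cultures, 44.9, 65.5 and 84.3 CPM in injured cortex and 187, 82.8 and 89.8 CPM in uninjured cortex. The cultures were near 0, and injured replicate 3 lay just above uninjured replicate 2. Its log2 fold change was -7.80 ± 0.63 in cultures against injured cortex (adjusted p = 1.56e-06) and -8.69 ± 0.64 against uninjured cortex (adjusted p = 4.65e-07), while injured against uninjured cortex gave -0.88 ± 0.41 (adjusted p = 0.196). Lrp3, opposite in strand to Slc7a10 with overlapping exons, had means of 1.55 CPM in cultures, 6.47 CPM in injured cortex and 9.05 CPM in uninjured cortex.

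The cystine and glutamate exchanger Slc7a11 had 64.3, 84.7 and 90.5 CPM in cultures, 56.1, 49.8 and 56.6 CPM in injured cortex and 39.4, 32.8 and 64.3 CPM in uninjured cortex. Uninjured replicate 3 reached the level of the lowest culture, and the other cortex libraries were below all cultures. It was called higher in cultures against uninjured cortex, with a log2 fold change of 0.81 ± 0.25 (adjusted p = 0.0149). That call was lost with upper-quartile scaling (adjusted p = 0.0566), without culture replicate 2 (0.0600), without culture replicate 3 (0.0548) and without uninjured replicate 2 (0.0762). Against injured cortex the log2 fold change was 0.56 ± 0.25 (adjusted p = 0.0815, and 0.0357 without uninjured replicate 3, which also enters the fit), and in injured against uninjured cortex it was 0.25 (adjusted p = 0.57). Slc7a6, a light chain that exchanges cationic for neutral amino acids, had 41.2, 40.9 and 35.4 CPM in cultures, 23.1, 22.6 and 16.9 CPM in injured cortex and 21.2, 14.2 and 15.7 CPM in uninjured cortex. The cultures were above all cortex libraries. The log2 fold change was 0.91 ± 0.22 against injured cortex (adjusted p = 0.00496) and 1.20 ± 0.22 against uninjured cortex (adjusted p = 6.37e-04), the second lost without uninjured replicates 2 and 3 (adjusted p = 0.0589).

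The other 3 light chains were called in no comparison. Slc7a7, which shares substrates with Slc7a6 and is known from macrophages and microglia, had 43.5, 51.6 and 41.6 CPM in cultures, 71.8, 106 and 30.5 CPM in injured cortex and 75.6, 69.7 and 50.0 CPM in uninjured cortex. Injured replicate 3 was below all cultures and the other injured libraries above them, with a log2 fold change of -0.61 in cultures against injured cortex (adjusted p = 0.167). Without injured replicate 3 it was -0.96 (adjusted p = 0.00497), and the change against uninjured cortex was -0.53 (adjusted p = 0.0448), in place of -0.51 (adjusted p = 0.222). Exons of Slc7a7 overlap those of Oxa1l on the opposite strand, whose means were 27.3 CPM in cultures, 40.2 CPM in injured cortex and 34.9 CPM in uninjured cortex. Slc7a8, a carrier of large and small neutral amino acids, had 136, 65.1 and 53.4 CPM in cultures, 63.9, 90.1 and 53.2 CPM in injured cortex and 55.2, 73.4 and 45.2 CPM in uninjured cortex. Culture replicate 1 was above all other libraries and the rest overlapped. Slc7a5, the carrier of large neutral amino acids such as leucine, had 25.5, 8.39 and 10.5 CPM in cultures, 22.6, 16.9 and 38.9 CPM in injured cortex and 15.2, 11.7 and 18.4 CPM in uninjured cortex. Its log2 fold change was 0.79 ± 0.41 in injured against uninjured cortex (adjusted p = 0.252) and -0.82 ± 0.42 in cultures against injured cortex (adjusted p = 0.117), or -1.46 without culture replicate 1 (adjusted p = 0.0112).

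The neutral amino acid exchangers of Slc1 went in opposite directions in cultures. Slc1a4, which carries serine, alanine and cysteine, had 9.52, 6.21 and 7.98 CPM in cultures, 24.4, 35.0 and 57.5 CPM in injured cortex and 39.4, 29.9 and 48.9 CPM in uninjured cortex. The cultures were below all cortex libraries and the cortex groups overlapped. The log2 fold change was -2.30 ± 0.33 in cultures against injured cortex (adjusted p = 1.31e-04) and -2.32 ± 0.33 against uninjured cortex (adjusted p = 8.32e-05). Slc1a5, the glutamine exchanger of dividing cells, had 36.6, 40.3 and 44.1 CPM in cultures, 30.1, 32.7 and 13.1 CPM in injured cortex and 20.1, 8.41 and 13.7 CPM in uninjured cortex. Injured replicates 1 and 2 were close to the cultures and replicate 3 was within the uninjured range. Slc1a5 was higher in cultures than in uninjured cortex by 1.52 ± 0.36 on the log2 scale (adjusted p = 0.00332), a call lost without uninjured replicates 2 and 3 (adjusted p = 0.122). Against injured cortex it gave 0.67 ± 0.35 (adjusted p = 0.128). Injured against uninjured cortex gave 0.84 ± 0.36 (adjusted p = 0.153); leaving out injured replicate 3 made it 1.14 (adjusted p = 0.0139).

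Promoters of the members were searched for a pair of short motifs. Promoters were read as 250 bases before to 50 bases after the RefSeq start on GRCm38.p6, for 38 members that had such a window. The composite element of C/EBP and ATF4, searched as TGATGNAA on both strands, was in 5 of the 58 promoters of these members (of Slc1a4, Slc6a21, Slc7a11 and Slc7a7) and in 3.97% of all 32851 promoters. The antioxidant response element, searched as TGACNNNGC on both strands, was in 9 of the 58 (of Slc38a2, Slc6a11, Slc6a13, Slc6a16, Slc6a9, Slc7a1 and Slc7a6) and in 12.4% of all promoters. Of these genes, Slc7a6 was called higher in cultures against uninjured cortex, and Slc38a2, Slc6a11, Slc6a13 and Slc6a9 lower. Slc7a1 was not called and Slc6a16 was not tested. In that comparison 15 of the 38 members past the filter were called higher and 16 lower, beside 27.5% and 33.1% of all genes. A link between motif and direction was not tested. No member held both motifs. Each is shown for a gene called higher and a gene called lower in cultures against uninjured cortex: Slc7a11 (chr3:50443564-50443863, minus strand) and Slc1a4 (chr11:20332664-20332963, minus strand) for the first, Slc7a6 (chr8:106168671-106168970, plus strand) and Slc6a11 (chr6:114130991-114131290, plus strand) for the second. Each sequence runs 5′ to 3′ of its gene, with the matches in capitals.
Slc7a11 promoter: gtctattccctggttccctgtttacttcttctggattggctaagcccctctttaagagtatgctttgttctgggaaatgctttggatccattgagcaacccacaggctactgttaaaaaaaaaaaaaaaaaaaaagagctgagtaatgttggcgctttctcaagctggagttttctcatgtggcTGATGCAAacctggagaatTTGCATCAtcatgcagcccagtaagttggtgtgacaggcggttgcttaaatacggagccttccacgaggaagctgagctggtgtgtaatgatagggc
Slc1a4 promoter: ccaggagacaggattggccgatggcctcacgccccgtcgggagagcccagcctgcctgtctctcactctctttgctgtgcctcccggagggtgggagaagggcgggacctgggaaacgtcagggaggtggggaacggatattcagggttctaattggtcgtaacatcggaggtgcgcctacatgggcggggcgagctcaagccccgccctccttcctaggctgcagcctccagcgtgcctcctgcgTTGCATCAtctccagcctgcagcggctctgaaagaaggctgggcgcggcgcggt
Slc7a6 promoter: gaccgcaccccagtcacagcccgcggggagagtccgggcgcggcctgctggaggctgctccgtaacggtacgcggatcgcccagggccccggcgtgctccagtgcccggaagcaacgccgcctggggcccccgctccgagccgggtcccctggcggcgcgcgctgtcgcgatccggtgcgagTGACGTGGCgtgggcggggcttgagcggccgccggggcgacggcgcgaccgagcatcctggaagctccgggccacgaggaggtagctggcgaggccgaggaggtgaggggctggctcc
Slc6a11 promoter: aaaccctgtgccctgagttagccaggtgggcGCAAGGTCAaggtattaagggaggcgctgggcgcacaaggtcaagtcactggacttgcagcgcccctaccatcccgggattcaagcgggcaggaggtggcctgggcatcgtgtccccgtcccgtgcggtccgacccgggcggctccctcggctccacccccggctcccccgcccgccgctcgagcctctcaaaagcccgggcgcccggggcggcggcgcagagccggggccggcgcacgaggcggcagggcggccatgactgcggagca
Slc7a11 holds a pair of matches, starting -66 and -47 bases from its start, Slc1a4 a match at -4, Slc7a6 a match at -68 and Slc6a11 a match at -219. A match is a description of letters, not a bound site.

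All 5 genes of the cationic group passed the filter, with 1 called higher and 1 lower in each culture comparison. Slc7a4, a family member with no transport shown for it alone, had 18.5, 26.9 and 21.1 CPM in cultures, 2.50, 1.94 and 4.39 CPM in injured cortex and 4.47, 2.34 and 2.81 CPM in uninjured cortex. The cultures were far above the cortex groups, which overlapped, with a log2 fold change of 2.90 ± 0.37 against injured cortex (adjusted p = 6.04e-05) and 2.79 ± 0.37 against uninjured cortex (adjusted p = 5.27e-05). P2rx6, with exons opposite those of Slc7a4, had means of 1.25 CPM in cultures, 0.442 CPM in injured cortex and 1.64 CPM in uninjured cortex. Slc7a14, a family member of lysosomes, had 0.246, 0.230 and 0.157 CPM in cultures, 4.53, 1.83 and 2.82 CPM in injured cortex and 1.60, 1.66 and 0.854 CPM in uninjured cortex. The groups did not overlap and injured cortex was highest, but injured against uninjured cortex missed the threshold at 1.15 ± 0.47 (adjusted p = 0.141). In cultures the log2 fold change was -3.80 ± 0.57 against injured cortex (adjusted p = 1.99e-04) and -2.65 ± 0.57 against uninjured cortex (adjusted p = 0.00178).

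The arginine and lysine carriers Slc7a1 and Slc7a2 passed the threshold in no comparison. Slc7a1 had 13.4, 12.5 and 15.9 CPM in cultures, 20.0, 18.6 and 26.8 CPM in injured cortex and 24.5, 11.9 and 20.8 CPM in uninjured cortex. All cultures were below all injured libraries, with a log2 fold change of -0.65 ± 0.28 (adjusted p = 0.0707). Without uninjured replicate 2, the lowest cortex library, it was -0.64 (adjusted p = 0.0438) and that against uninjured cortex -0.72 (adjusted p = 0.0381). Slc7a2, which supplies arginine to activated macrophages and is also known from astrocytes, had 11.7, 10.8 and 14.7 CPM in cultures, 4.29, 4.08 and 10.9 CPM in injured cortex and 11.7, 11.1 and 24.6 CPM in uninjured cortex. Injured replicates 1 and 2 held the lowest levels, and injured replicate 3 lay just below the uninjured range. For Slc7a2 the log2 fold change was -1.28 ± 0.42 in injured against uninjured cortex (adjusted p = 0.0706) and 0.94 ± 0.42 in cultures against injured cortex (adjusted p = 0.0817). Without injured replicate 3 these were -1.93 (adjusted p = 0.00277) and 1.57 (adjusted p = 0.00388).

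Of the Slc38 genes 10 of 11 passed the filter, and both directions appeared after injury. Slc38a1, a sodium-coupled glutamine carrier of neurons and other cells, was the only member called higher after injury. It had 32.8, 37.0 and 41.0 CPM in cultures, 58.1, 45.0 and 30.4 CPM in injured cortex and 15.2, 25.0 and 18.2 CPM in uninjured cortex. All injured libraries were above all uninjured ones, with a log2 fold change of 1.19 ± 0.27 (adjusted p = 0.0124). The adjusted p was 0.0834 without injured replicate 1, 0.0570 without uninjured replicate 3 and 0.0811 with uninjured replicates 2 and 3 left out. Cultures were higher than uninjured cortex by 0.92 ± 0.26 on the log2 scale (adjusted p = 0.0098) and overlapped injured cortex, with -0.27 (adjusted p = 0.409).

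Slc38a11, a member with no well-described substrate, had 2.39, 3.10 and 1.64 CPM in cultures, 7.36, 4.87 and 5.58 CPM in injured cortex and 14.1, 20.1 and 16.0 CPM in uninjured cortex. The 3 groups did not overlap, with uninjured cortex highest. Its change was -1.50 ± 0.30 on the log2 scale in injured against uninjured cortex (adjusted p = 0.00713; 0.209 with uninjured replicates 2 and 3 left out). It was -1.31 ± 0.32 in cultures against injured cortex (adjusted p = 0.00478) and -2.80 ± 0.32 against uninjured cortex (adjusted p = 1.69e-05).

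Slc38a2 and Slc38a3 were both lower in cultures. Slc38a3, through which astrocytes release glutamine, had 0.553, 0.632 and 0.783 CPM in cultures, 41.7, 48.0 and 79.2 CPM in injured cortex and 90.9, 59.3 and 73.3 CPM in uninjured cortex. No culture was near a cortex library, and injured replicate 3 lay within the uninjured range. Its log2 fold change was -6.42 ± 0.36 in cultures against injured cortex (adjusted p = 1.14e-07), -6.83 ± 0.36 against uninjured cortex (adjusted p = 4.12e-08) and -0.40 ± 0.26 in injured against uninjured cortex (adjusted p = 0.353; 0.0303 without injured replicate 3). Slc38a2, a glutamine and alanine carrier that cells raise when amino acids run short, had 70.9, 45.5 and 51.1 CPM in cultures, 212, 170 and 186 CPM in injured cortex and 222, 246 and 184 CPM in uninjured cortex. Cultures were below all cortex libraries, with -1.76 ± 0.23 against injured cortex (adjusted p = 7.32e-05) and -1.96 ± 0.23 against uninjured cortex (adjusted p = 2.08e-05). Slc38a1, Slc38a2 and Slc38a4 are neighbours in the RefSeq gene order.

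The third gene of that cluster, Slc38a4, known from liver and placenta, had 4.67, 2.01 and 1.41 CPM in cultures, no count in injured cortex and 0, 0.0450 and 0.0610 CPM in uninjured cortex. With 129 counts in cultures it was at least 64.5-fold higher than injured cortex, taken at a floor of 3 counts over the group (adjusted p = 1.52e-04). Against the 2 counts of uninjured cortex the ratio was 78.8 (95% exact counting interval 21.4 to 657, adjusted p = 2.80e-04). Slc38a4 could be tested only because the cultures brought it past the filter. Slc38a5, a glutamine and serine carrier, went the other way: 0.123, 0 and 0 CPM in cultures, 11.0, 13.8 and 8.20 CPM in injured cortex and 26.7, 3.19 and 10.0 CPM in uninjured cortex. Its 2 counts in cultures were lower than the 737 of injured cortex by a ratio of 246 (67.8 to 2033, adjusted p = 7.12e-05) and lower than the 719 of uninjured cortex by a ratio of 294 (81.2 to 2436, adjusted p = 3.42e-05).

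Of the other 4 members of Slc38, 3 were higher and 1 lower in cultures than in uninjured cortex. Slc38a9, the lysosomal arginine sensor of the mTORC1 pathway, had 22.6, 24.1 and 24.9 CPM in cultures, 40.3, 37.0 and 37.8 CPM in injured cortex and 45.8, 42.7 and 42.7 CPM in uninjured cortex. The 3 groups did not overlap, and the log2 fold change was -0.68 ± 0.17 in cultures against injured cortex (adjusted p = 0.00568) and -0.87 ± 0.17 against uninjured cortex (adjusted p = 9.06e-04). Slc38a7, a lysosomal glutamine exporter, had 19.6, 12.5 and 15.1 CPM in cultures, 10.4, 12.9 and 13.9 CPM in injured cortex and 5.69, 8.91 and 6.28 CPM in uninjured cortex. It was higher in cultures than in uninjured cortex by 1.17 ± 0.28 on the log2 scale (adjusted p = 0.00304), and injured against uninjured cortex gave 0.83 ± 0.27 with no overlap (adjusted p = 0.0709). Slc38a6 had 11.4, 13.2 and 12.1 CPM in cultures, 4.48, 6.60 and 4.59 CPM in injured cortex and 3.37, 4.99 and 6.22 CPM in uninjured cortex. It was higher in cultures on the log2 scale by 1.23 ± 0.30 against injured cortex (adjusted p = 0.00535) and by 1.33 ± 0.30 against uninjured cortex (adjusted p = 0.00257). Slc38a10 had 83.7, 45.9 and 50.9 CPM in cultures, 34.2, 46.3 and 49.1 CPM in injured cortex and 33.6, 32.2 and 32.0 CPM in uninjured cortex. It was higher in cultures than in uninjured cortex by 0.89 ± 0.24 on the log2 scale (adjusted p = 0.00798; 0.128 with uninjured replicates 2 and 3 left out).

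Genes that work with the carriers were described from a list of 35, of which 29 passed the filter: heavy chains, enzymes of glutamate, glutamine, GABA, glycine and arginine, vesicular carriers and other amino acid carriers. Of these 6 were higher and 0 lower in injured against uninjured cortex, 10 higher and 7 lower in cultures against injured cortex, and 16 higher and 6 lower in cultures against uninjured cortex, in the same test. These are 20.7%, 58.6% and 75.9% of the 29, beside 11.9%, 50.1% and 60.5% of all genes. Glul, the glutamine synthetase of astrocytes and oligodendrocytes, had 156, 229 and 180 CPM in cultures, 854, 1034 and 762 CPM in injured cortex and 1763, 1585 and 1449 CPM in uninjured cortex. The 3 groups were apart, with a log2 fold change of -2.23 ± 0.27 in cultures against injured cortex (adjusted p = 3.85e-05), -3.09 ± 0.28 against uninjured cortex (adjusted p = 2.26e-06) and -0.86 ± 0.26 in injured against uninjured cortex (adjusted p = 0.0516). Gldc, which breaks down glycine in astrocytes, averaged 0.576 ± 0.102 CPM in cultures, 13.4 ± 7.26 CPM in injured cortex and 29.1 ± 5.18 CPM in uninjured cortex (SD, n = 3 each). The GABA transaminase Abat averaged 2.86 ± 0.0888 CPM in cultures, 26.5 ± 8.62 CPM in injured cortex and 31.2 ± 5.64 CPM in uninjured cortex. Both were called lower in both culture comparisons. Slc36a2, a proton-coupled carrier of small amino acids, averaged 32.2 ± 4.98 CPM in cultures, 1.99 ± 0.551 CPM in injured cortex and 3.13 ± 0.592 CPM in uninjured cortex, higher in cultures by 4.01 ± 0.30 against injured cortex (adjusted p = 8.65e-07) and by 3.36 ± 0.29 against uninjured cortex (adjusted p = 1.67e-06), on the log2 scale. The arginase gene Arg1, which also counts among the macrophage and monocyte markers, averaged 41.6 ± 24.1 CPM in injured cortex and 0.690 ± 0.319 CPM in uninjured cortex, a log2 fold change of 5.88 ± 0.61 (adjusted p = 9.92e-05).

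The 16 members below the filter had at most 26 counts each over all 9 libraries, against at least 130 for those that passed. They included the carriers of noradrenaline, dopamine and serotonin, Slc6a2, Slc6a3 and Slc6a4, and the proline carrier Slc6a7, all of neurons, with Slc6a5 and Slc1a7 named above. The others were Slc38a8, Slc6a14, Slc6a16, Slc6a18, Slc6a20b, Slc6a21, Slc7a9, Slc7a12, Slc7a13 and Slc7a15. Slc6a14 and Slc7a12 had 0 counts in every library. Differences in these genes were not tested in the main analysis. Slc6a4, chosen after its values were seen, had 20 counts in cultures, 1 in injured cortex and 4 in uninjured cortex. Slc7a3 and Slc6a15 passed the filter at 0.450 to 6.71 CPM and 0.305 to 1.46 CPM over the 9 libraries and were called in no comparison.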

How the data were processed

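RNA sequencing libraries of 3 reactive cultures, 3 injured cortices and 3 uninjured cortices were analysed, in the groups their labels state. Values are raw gene counts deposited by the authors. Reads were aligned with HISAT2 to GRCm39, per the submitters' processing notes. Not given in the sources used here are versions, counting tool, strand setting and annotation. Members and gene lists were chosen with earlier results of these data known.

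Tests used edgeR 4.0.16 in R 4.3.3, with filterByExpr at its defaults, TMM scaling (trimmed mean of M values) and a quasi-likelihood fit with a mean for each group over all 9 libraries (6 residual degrees of freedom). P-values were adjusted by the Benjamini-Hochberg method over all genes tested. Gene levels are TMM-normalised CPM, and sums over lists are CPM of the library total. Changes are log2 fold changes ± SE. The SE was derived from the test, as the size of the log2 fold change divided by the square root of the quasi-likelihood F statistic. Of genes sharing a symbol, the one with most counts kept it, and 882 were named by identifier. The named genes are members called in at least 1 comparison or with a group mean of at least 10 CPM, and partner genes with the smallest adjusted p. Exon lengths (54 of 54 members, matched by gene identifier) and overlaps (matched by symbol) came from GENCODE M21, and promoters and gene order from RefSeq on GRCm38.p6. Some results are not reported here. Scripts were tested on simulated data. Alternatives used DESeq2 1.42.0 and limma 3.58.1. Same-numbered replicates were not treated as pairs in the main test.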

Additional observations from a re-analysis of the deposited data

How the results depend on the processing

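Over 108 pairs of a named gene and a comparison and 18 alternatives, no value that was called changed sign, and 16 pairs not called in either fit did. In cultures against injured cortex, 25 of 25 calls were made under every alternative, and in cultures against uninjured cortex 26 of 31, without Slc1a5, Slc38a10, Slc6a13, Slc7a6 and Slc7a11. Between injured and uninjured cortex, 1 member was higher and 2 lower, and 0 of these 3 calls were made under every alternative. The counts were 5 higher and 5 lower with no filter on low counts, 3 higher and 4 lower with the Wald test of DESeq2, and 0 higher and 0 lower in edgeR with uninjured replicates 2 and 3 left out, which leaves 1 uninjured library, assumed to vary like the other groups. Leaving out 1 library at a time gave 0 to 4 higher and 2 to 8 lower, with the 8 lower when injured replicate 3 was left out. Calls over all genes moved too, with 519 lower at first, 911 with no filter, 1246 with the Wald test, 42 without uninjured replicates 2 and 3 and 1678 without injured replicate 3. Deviations of same-numbered replicates correlated at -0.09 to 0.35 between the cortex groups. Differently numbered pairs were not computed, so these values cannot decide whether the numbers pair the samples. A block for the number gave 1 higher and 4 lower. The cause of these shifts was not tested. Upper-quartile scaling put the median log2 fold change of all genes at -0.12 between the cortex groups and at -0.37 in cultures against uninjured cortex, beside 0.00 and -0.17. Depth limits what can be said of the 16 members below the filter.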
